A study of Mus musculus with 4 samples.

Results

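The spleen transcriptome of mice given lipopolysaccharide was compared between a diet with added nucleoprotein and a diet low in it. The comparison rests on the 2 spleen arrays of a series of 4 arrays. The other 2 arrays held liver from the same experiment and were used here only to check the tissue and to recognise liver-rich genes. All mice were male C57BL/6J, 7 weeks old, and none carried a transgene or mutation in the labels. The control mice ate a purified diet with 0.03% nucleic acids, and the nucleoprotein mice ate it with a nucleoprotein product at 1.2%, which raised nucleic acids to 0.5%. The housing notes also name a standard chow, and the design text was followed here. Feeding lasted 4 weeks, after which both groups received 1 injection of lipopolysaccharide, a bacterial cell wall component that provokes systemic inflammation, at 10 mg/kg. Spleens were taken 6 h later, so every value below is from an acutely inflamed organ, and no mice without lipopolysaccharide were analysed here.

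RNA was pooled within each diet before labelling. How many mice each pool held was not given by the labels or the design text. Each array carried both pools. The nucleoprotein pool was labelled with the red dye Cy5 on array 1 and with the green dye Cy3 on array 2. The titles number the pooled samples of array 1 and array 2 as 1 and 2, so that separate pools for each array cannot be told apart from 1 set of pools labelled again. The arrays were treated as a dye swap of 1 pool per diet. So counted, a difference between the diets has no replicate check, and it is described without a test or p-value. Ratios are log2 of nucleoprotein over control, given for array 1 and then array 2, and a ± is the SD of these 2 arrays, which covers only labelling and array error if the pools were the same. Levels are log2 intensities of 1 pool on 1 array.

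The spleen combines a blood filter with a lymphoid organ. Its red pulp holds macrophages that clear old red cells and, in mice, erythroid precursors. Its white pulp holds T cell zones, B cell follicles and the marginal zone, and antibody-secreting plasma cells lie in the red pulp. Antibodies are built from heavy and light chains, each encoded by a variable gene segment joined to a constant region. The genome holds many variable segments, and each B cell uses a different choice of them. Dietary nucleotides enter the salvage pathways from which dividing lymphocytes can also draw.

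The arrays measured 27670 named genes, of which 18151 were measurable in spleen, meaning well above background on both arrays in at least 1 diet. Per channel 62.2% to 72.8% of gene spots stood well above background, and 0 were saturated. The tissue matched its label. Of B cell genes measurable in either organ, 35 of 35 were brighter in spleen than in liver, with a median difference of 3.99 log2 units, as were 37 of 37 NK cell genes, 32 of 38 T cell genes and 27 of 35 splenic macrophage genes. Gene-specific dye effects were large. Across the genes that were not set apart, the ratios of the 2 arrays correlated at -0.17 (Pearson) and -0.28 (Spearman), which is a description across genes of 1 pair of pools. Of these genes 60.4% had opposite signs on the 2 arrays, 19.9% were higher with nucleoprotein on both and 19.7% lower. A difference between diets can therefore be read only where both arrays gave the same sign, and the median SD between arrays was 0.099. Bright genes kept an offset between the arrays. The 430 of them with a mean level over 14 had medians of 0.12 on array 1 and -0.15 on array 2.

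Genes of hepatocytes and of digestive enzymes were set apart from spleen genes. A gene was set apart if it belonged to the hepatocyte, pancreatic acinar or islet lists, if it was at least 8-fold brighter on liver than on spleen arrays, or if it was more than 4-fold lower on both liver arrays. This removed 702 measurable genes and left 17449. In the nucleoprotein pool 21 of 39 measurable hepatocyte genes were past 1.5-fold higher on both arrays, against 0.215% of all measurable genes, with a list median of 0.81 (0.79 and 0.82). The summed level of the 45 hepatocyte genes on the arrays was 14.30 and 13.95 with nucleoprotein against 13.43 and 12.89 in control, on the log2 scale. Of 45 measurable digestive enzyme genes 23 were past 1.5-fold lower, against 0.226%, with a median of -0.67 (-0.66 and -0.75) and a summed level of 15.12 and 14.82 against 16.32 and 16.15. Among the genes set apart, the plasma proteins Fgg and Alb were in the higher group and Amy1 and Prss3, amylase and a trypsin, in the lower. The part of these differences in the results on spleen genes was not tested.

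Few genes of the spleen itself differed by 1.5-fold (0.58 log2 units) on both arrays. Of the 17449 genes, 5 were higher with nucleoprotein, 0.0287% of them, and 18 were lower, 0.103%. Another 4 genes (0.0229%) passed the same bound in opposite directions, all with Cy5 higher. At 1.3-fold (0.38 log2 units), 16 genes were higher (0.0917%) and 51 lower (0.292%), while 48 (0.275%) passed it in opposite directions. Dye effects give opposite directions in a dye swap, so that count does not measure the error of readings that agree. Single genes between these bounds remain without a replicate check. Of the 18 genes past 1.5-fold lower, 10 came from immunoglobulin loci, 8 of them by their description and the rest by position. Those with an official symbol outside the immunoglobulin loci were Dct, Hspa1a and Cyp20a1, and the remainder were transcripts without one. Of the 51 past 1.3-fold lower, 32 were immunoglobulin by description or position, and of the 16 higher, 0 were.

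The immunoglobulin probes are shown first because they make up most of the lower group. They were collected after their values had been seen. The 4 probe sequences below all target kappa light chain variable genes on chromosome 6 (mouse build mm7, plus strand) and all read past 1.5-fold lower on both arrays. Capitals mark the run of 26 bases that the first and second probes share, the longest in common between them.
Igkv3-12, chr6:70536801-70536860: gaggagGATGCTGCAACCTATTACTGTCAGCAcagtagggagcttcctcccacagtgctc
ENSMUST00000089814, chr6:70591160-70591219: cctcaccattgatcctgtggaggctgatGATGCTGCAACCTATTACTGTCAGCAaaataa
LOC673099, chr6:70571620-70571679: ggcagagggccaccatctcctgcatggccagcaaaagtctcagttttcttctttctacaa
BC080787, chr6:70625849-70625908: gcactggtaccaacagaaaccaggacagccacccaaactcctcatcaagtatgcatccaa

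In their best ungapped overlap of at least 30 bases, the Igkv3-12 and ENSMUST00000089814 probes were 84.2% identical, and that run encodes the end of the variable domain, where related genes are similar. These probes can bind transcripts of both genes. The LOC673099 probe was 46.7% identical to that of Igkv3-12 and the BC080787 probe 48.8%, so the lower readings came from probes with different letters. Whether they read different transcripts was not tested. In the Igkv3-12 probe the level was 9.12 and 8.98 with nucleoprotein on arrays 1 and 2, against 10.05 and 10.26 in control. The ratios were -0.92 and -1.28, 2.15-fold lower. LOC673099 stood at 8.52 and 8.39 against 9.49 and 9.53, with ratios of -0.98 and -1.14. BC080787 gave ratios of -0.84 and -0.94, and ENSMUST00000089814 of -0.64 and -1.09. In each of these 4 probes both nucleoprotein values lay below both control values. As all 4 were already past 1.5-fold lower on both arrays, this adds little to those ratios.

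At the other end of the kappa locus the readings went the other way. The variable gene Igkv1-135 is covered by a pair of probes, printed here because they are the first of the locus in chromosome order.
Igkv1-135, chr6:67598267-67598326: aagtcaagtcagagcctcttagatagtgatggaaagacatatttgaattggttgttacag
Igkv1-135, chr6:67598470-67598529: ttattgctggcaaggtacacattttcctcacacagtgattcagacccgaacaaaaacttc
Their ratios were 0.49 and 0.28 for the first probe and 0.24 and 0.16 for the second. The neighbouring Igkv1-133 stood at 0.36 and 0.10. By the naming of these genes, the last number counts from the constant region, so Igkv1-135 is far from it and Igkv3-12 close. Other officially named kappa genes followed this order in part. Igkv1-132 and Igkv9-123 had mean ratios of 0.12 and 0.21, Igkv2-116 of -0.15, and Igkv4-63 and Igkv4-55 of -0.40 and -0.33. In contrast, Igkv8-16, the nearest to Igkv3-12 among the officially named genes, stood at only -0.08.

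The 48 measurable kappa variable probes were divided by chromosome order into 3 equal groups of 16. In the first group, which holds Igkv1-135, 5 probes were below 0 and 7 above 0 on both arrays, and the median was 0.07 (0.08 and 0.03). In the middle group 14 were below 0 and 2 above, with a median of -0.42 (-0.29 and -0.48). In the last group 14 were below 0, 2 above, 5 past 1.5-fold lower, and the median was -0.52 (-0.38 and -0.63). For comparison, 19.5% of all 26900 measurable probes were below 0 on both arrays and 20.9% above. Igkv4-72, in the middle group, stood at -0.40 and -0.80.

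Heavy chain variable genes on chromosome 12 were also lower. Of 45 probes 38 were below 0 on both arrays and 2 above, 13 were past 1.3-fold lower and 0 higher, and the median was -0.36 (-0.35 and -0.34). Over all loci, 32 of 124 were past 1.3-fold lower, against 0.383% of all measurable probes, and 10 were past 1.5-fold lower, against 0.201%. The heavy chain locus in 3 groups of 15 probes had medians of -0.12, -0.34 and -0.41 in chromosome order, the last being farthest from the constant regions. In its middle group 15 of 15 were below 0 on both arrays. Of 9 probes grouped as lambda light chain, a smaller locus, 8 were below 0 on both arrays and the median was -0.18. Those 8 all read the same entry, Iglv1, and the other read the surrogate light chain gene Igll1. Over all 124 immunoglobulin probes, 93 were below 0 on both arrays, 16 above, and the median was -0.30 (-0.24 and -0.31). A separate list of immunoglobulin genes by name, with 10 measurable members that include Ighm, Ighg1 and the surrogate light chain genes Igll1, Vpreb1 and Vpreb2, had no such median. Of its members 3 were below 0 on both arrays and 2 above, and the median was -0.01 (0.00 and -0.12). All 124 were brighter on spleen than on liver arrays, 65 of them by at least 8-fold. With median centring in place of loess the median was -0.31 but only 2 probes passed 1.3-fold on both arrays. Variable genes form families of similar sequence, so the probes are not independent of each other.

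**Figure D1:**
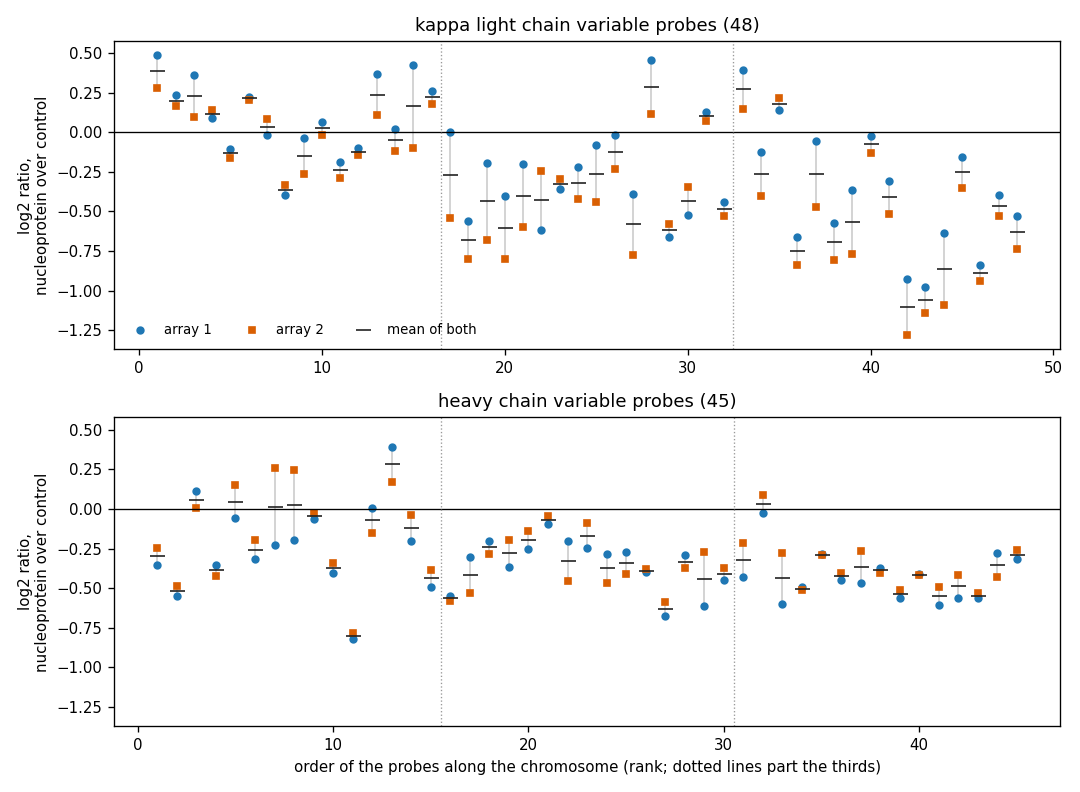
Log2 ratio of nucleoprotein over control for the 48 kappa (top) and 45 heavy chain (bottom) variable probes, in chromosome order as ranks, with array 1 as circles, array 2 as squares and their mean as a bar. The first 16 kappa probes lie around 0 (median 0.07), the last 16 below it (median -0.52), and most heavy chain probes lie below 0 (median -0.36).

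Constant region probes, which read the antibody class, differed among themselves. The lowest were those of Igh-1a, the IgG2a heavy chain, at 11.39 and 11.47 with nucleoprotein against 12.54 and 12.75 in control. Its ratios were -1.16 and -1.28 in this probe and -0.89 and -0.90 in the other. These mice are of a strain that carries the related IgG2c gene, which the probes may bind. The sequences of both are shown because they carry the largest class difference. They lie on a stretch of chromosome 12 that build mm7 had not placed (plus strand), at 5440237 to 5440296 for the first and within 5439095 to 5439470 for the second.
Igh-1a, first probe: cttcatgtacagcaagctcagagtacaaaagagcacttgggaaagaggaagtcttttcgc
Igh-1a, second probe: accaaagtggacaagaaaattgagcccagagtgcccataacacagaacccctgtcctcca
Ighg, a gamma chain entry on the same stretch, gave -0.60 and -0.81 in its brightest probe and -0.66 and -0.51 in another, while a further Ighg probe, within the variable genes, gave a mean of 0.02. The 3 probes of Ighg1, the IgG1 chain, had means of 0.12, 0.08 and 0.09. The IgM chain, which nearly all naive B cells make, was read by 4 probes that disagreed. The brightest, annotated as the mu constant region under the name ENSMUST00000003582, stood at -0.03 and -0.76, and those named Ighm at 0.12 and -0.24, -0.09 and -0.89, and, for a dim probe, -0.33 and -0.18. In the 3 bright ones the difference lay mostly on array 2. Genes with a mean level over 14, as these probes have, read lower on array 2 in general (medians 0.12 and -0.15). The 3 probes named Igh-VJ558 at the constant end of the locus had means between 0.21 and 0.32, with array 1 above array 2 in each. Only the probes of Igh-1a and Ighg passed 1.3-fold lower on both arrays among the 13 probes of the constant region span, of which 6 were below 0 on both and 2 above, with a median of -0.06 (0.08 and -0.24).

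Genes that accompany antibody secretion were lower by less. Of the 19 measurable in either organ, 9 were brighter on spleen and 10 on liver arrays, so the list does not mark spleen plasma cells alone. None of the 18 measurable plasma cell genes other than immunoglobulins passed 1.3-fold, but 12 were below 0 on both arrays and 0 above, against 19.7% and 19.9% of spleen genes, and the list median was -0.11 (-0.05 and -0.19). Mzb1, a chaperone of antibody assembly, stood at -0.49 and -0.22. Txndc5, a disulfide isomerase, was at -0.21 and -0.29, and Derl3, which helps to remove misfolded proteins from the endoplasmic reticulum, at -0.17 and -0.39. Jchain, which links IgM and IgA into polymers, was at -0.01 and -0.54, so that array 1 showed almost none of the difference. With a mean level of 14.06, this probe also lay in the bright range that read lower on array 2. A second bright probe gave -0.12 and -0.25. Hsp90b1 and Creld2, the brightest members after Jchain, were at -0.12 ± 0.13 and -0.14 ± 0.05.

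B cells themselves showed no common shift. Of 33 measurable B cell identity genes, 11 were below 0 and 7 above on both arrays, against 19.7% and 19.9% of spleen genes. The median was -0.02 (-0.04 and 0.01). The brightest, Ighm, Ly6d and Blnk, stood at means of -0.06, -0.01 and -0.09. Fcmr, the IgM Fc receptor, was at -0.26 and -0.30, and the antigen receptor subunit Cd79b at -0.32 and -0.16. Btk, a kinase of B cell receptor signalling, was the member past 1.3-fold. Its level was 9.87 and 9.84 with nucleoprotein against 9.37 and 9.04 in control, and its ratios were 0.51 and 0.79 (0.65 ± 0.20). Among 18 marginal zone and germinal centre genes 8 were below 0 on both arrays, 44.4%, and 0 above, with a median of -0.06. Rgs13, a germinal centre regulator of G protein signalling, was at -0.59 and -0.29, from a dim probe with a mean level of 6.93.

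T cell genes lay slightly below 0. Of 36 measurable members 19 were below 0 on both arrays and 0 above, against 19.7% and 19.9% of spleen genes. The median was -0.07 (-0.06 and -0.11), while 0 passed 1.5-fold and 1 passed 1.3-fold. That member was Thy1, a surface glycoprotein of T cells that stromal cells also carry, at 9.79 and 9.49 with nucleoprotein against 10.23 and 9.92 in control. Its ratios were -0.44 and -0.43, although its other, dimmer probe gave 0.03 and -0.41. The co-receptor Cd5 was at -0.28 and -0.26. The brightest T cell genes were closer to 0, with Ms4a4b at 0.04 ± 0.08, Satb1 at -0.08 ± 0.11 and Cd8b1 at -0.31 and 0.25. In the list of regulatory and activated T cells, Il17a, the cytokine of Th17 cells, stood at 7.10 and 7.06 against 7.49 and 7.62, with ratios of -0.39 and -0.56, from a dim probe. Ifng, one of the brightest members, was at -0.16 and -0.23. The list median was -0.02, and 7 of 21 members were below 0 on both arrays and 2 above.

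Clec2d had the highest ratio of all genes that were not set apart. Its probe lay at chr6:129209632-129209691, and no gene model of mm7 was used here to place probes in exons. It encodes a lectin-like surface protein that engages the inhibitory NK receptor of the Klrb1 family. The level was 11.42 and 11.52 with nucleoprotein and 10.02 and 10.00 in control, and the ratios of 1.40 and 1.52 (1.46 ± 0.09) make it 2.75-fold higher. On the liver arrays its ratios were -0.89 and 0.41. The other genes of the NK list did not share this. The 37 measurable members of the list of NK and cytotoxic genes, Clec2d included, had a median of 0.01 (0.06 and -0.03), with 9 above 0 and 8 below 0 on both arrays. Klra7, an inhibitory NK receptor, was at 0.20 and 0.17, the granule protease Gzmb at 0.33 and -0.19, and the chemokine Ccl5, the brightest member, at 0.22 and -0.20.

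The other genes past 1.5-fold higher were Snrpd3, Ipo7, Kifc5b and the transcript BC021831. Snrpd3, a core protein of the spliceosome (chr10:75190933-75190992), stood at 14.05 and 14.11 against 13.35 and 13.24, with ratios of 0.71 and 0.88. A second probe of Snrpd3 gave 0.81 and 0.99 and a dimmer one -0.04 and 0.14. Ipo7, a nuclear import receptor, was at 1.32 and 0.81 in its brightest probe and between 0.11 and 0.30 in its 3 others. Kifc5b, a kinesin motor close in sequence to Kifc1, was at 1.06 and 0.74, and its second probe at a mean of 0.68. BC021831 was at 0.85 and 1.36. Between the bounds of 1.3-fold and 1.5-fold lay, chosen after their values were seen, Tubb2b, a beta tubulin (0.79 and 0.51), Raly, an RNA-binding protein (0.49 and 1.09), Trim12c (0.73 and 0.51), Tmem267 (0.51 and 0.56), Ankrd24 (0.62 and 0.40) and the peptide transporter Slc15a2 (0.47 and 0.49). The other probe of Slc15a2 gave a mean of -0.06, so that reading was not shared.

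**Figure D2:**
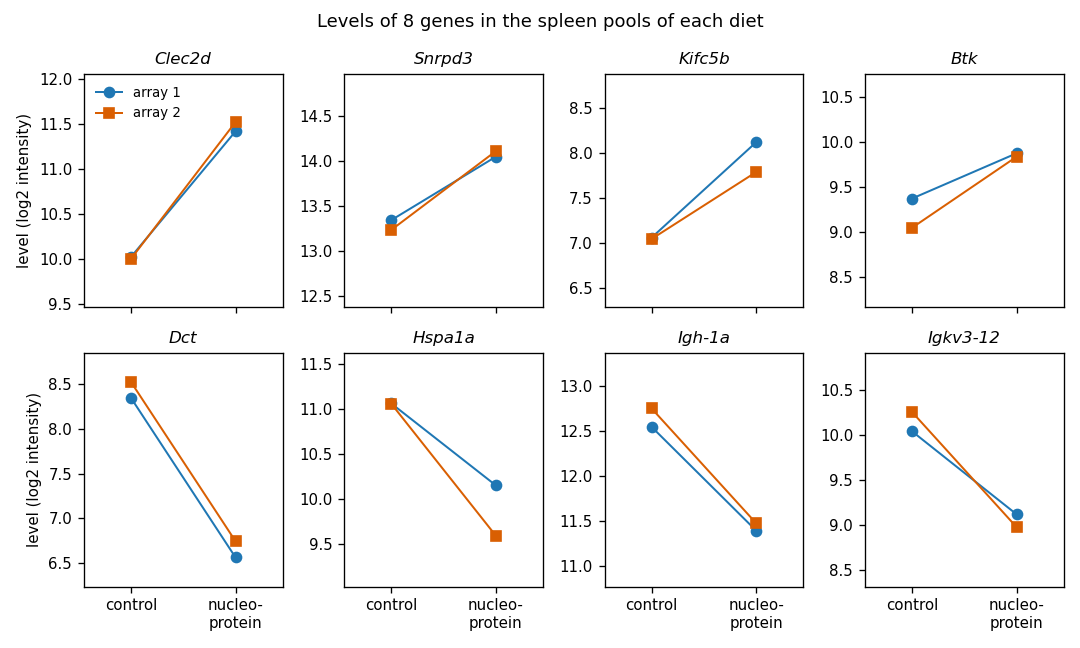
Level (log2 intensity) of 8 genes in the control and the nucleoprotein pool, with array 1 as circles and array 2 as squares joined by lines; each panel spans the same range of log2 units. Clec2d lay at 10.02 and 10.00 in control and at 11.42 and 11.52 with nucleoprotein, and Dct went from 8.34 and 8.52 to 6.57 and 6.75.

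Dct had the lowest ratio of the genes not set apart. It encodes dopachrome tautomerase, an enzyme of melanin synthesis in pigment cells, and the probe lay at chr14:112415582-112415642. Its level was 6.57 and 6.75 with nucleoprotein and 8.34 and 8.52 in control, 3.42-fold lower, and its other probe gave -0.50 and -0.53. Other genes of melanocytes were read near background. Mlana, a melanosome protein, stood at -0.36 and -0.61 and was well above background with nucleoprotein on 1 array. Pmel, which forms the fibrils on which melanin is laid down, was at -0.26 and -0.41. The pigment enzyme Tyrp1 was above background in control on 1 array (-0.23 and -0.32), and Tyr, the first enzyme of melanin synthesis, on 0 arrays in either diet. The melanocyte regulator Mitf was at -0.09 and -0.07 and Sox10 at 0.04 and -0.00. Over the 9 measurable melanocyte genes, Dct included, 4 were below 0 on both arrays and 1 above, against 19.7% and 19.9% of spleen genes. The summed level of the 14 genes on the arrays was 10.37 and 10.38 with nucleoprotein and 10.63 and 10.73 in control. That sum contains Dct, so it is not separate from the Dct reading. The Dct probe was itself 2.02 log2 units brighter on the liver arrays, where its diet ratios were -0.11 and 0.24. The part of pigment cells in the Dct result was not tested.

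Hspa1a, the inducible form of the chaperone Hsp70, was lower in 4 of 4 probes. The brightest, at chr17:33066911-33066970, read 10.15 and 9.59 with nucleoprotein and 11.06 and 11.06 in control (ratios -0.91 and -1.47). The others gave -1.16 and -1.04, -0.72 and -0.83, and -0.21 and -0.23, the last at a level of only 6.42. On the liver arrays its ratios were -1.20 and -1.40. Its close copy Hspa1b may bind some of the same probes, which was not tested. Of 36 measurable heat shock and folding genes 15 were below 0 on both arrays and 0 above, against 19.7% and 19.9% of spleen genes. The list median was -0.08 (-0.07 and -0.06). Hsph1, a nucleotide exchange factor of Hsp70, was at -0.25 and -0.54, its relative Hspa4l at -0.39 and -0.35, and the co-chaperone Bag3 at -0.28 and -0.17. The constitutive Hsp90ab1, the brightest, was at 0.03 and -0.32.

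Other lower genes had no common role in the lists. Cyp20a1, a cytochrome P450 without a settled substrate, stood at 7.66 and 7.93 against 8.64 and 8.83, with ratios of -0.99 and -0.90. Irak2, a kinase that carries Toll-like receptor signals to NF-kB, was at 10.36 and 10.46 against 10.94 and 10.93, and its ratios were -0.57 and -0.47. The 39 measurable genes of that pathway had a median of 0.02 (0.03 and -0.02), with 5 below 0 and 5 above on both arrays. Chosen after their values were seen, further genes past 1.3-fold lower were Itgb7, an integrin of gut-homing lymphocytes (-0.39 and -0.61), the BCL2 family member Bok (-0.54 and -0.48), the late endosomal GTPase Rab7b (-0.57 and -0.41), the potassium channel Kcnj10 (-0.48 and -0.72) and Jpt2 (-0.50 and -0.60, with its other probe at -0.22).

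**Figure D3:**
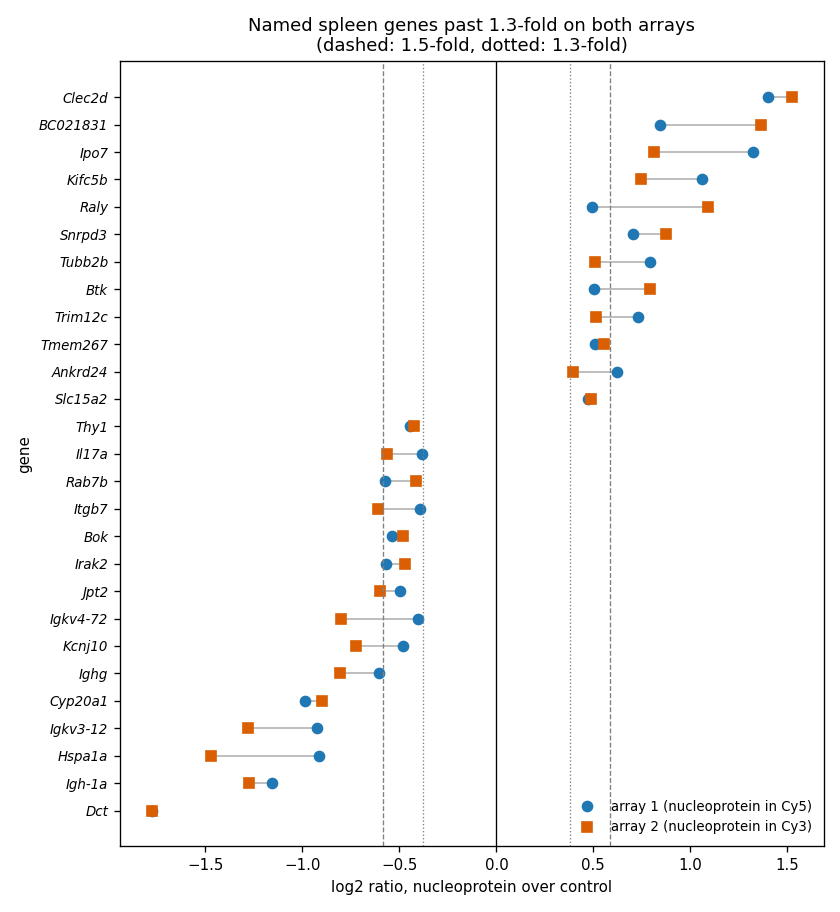
Log2 ratio of nucleoprotein over control on array 1 (circles) and array 2 (squares) for the named genes past 1.3-fold in the same direction on both arrays; dashed lines mark 1.5-fold and dotted lines 1.3-fold. Clec2d (1.40 and 1.52) and Dct (-1.78 and -1.77) are the extremes.

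Cell division genes were lower by a small amount in most members. Of 74 measurable genes of mitosis and the G2/M phase, 53 were below 0 on both arrays and 1 above, 71.6% against 19.7% of spleen genes, and the median was -0.11 (-0.07 and -0.14). None was past 1.3-fold lower, and the 1 above 0 was Kifc5b. The kinase Aurka stood at -0.22 and -0.25, the checkpoint protein Mad2l1 at -0.20 and -0.31, the anaphase activator Cdc20 at -0.19 and -0.28, and the tubulin-binding Stmn1 at -0.17 and -0.36. Mki67, the usual marker of cycling cells, was at -0.37 and -0.07. Of 52 DNA replication genes 29 were below 0 on both arrays and 1 above, with a median of -0.07 (-0.07 and -0.08). Rrm2, the inducible subunit of ribonucleotide reductase, was at 8.81 and 8.79 against 9.21 and 9.06, which gave ratios of -0.39 and -0.27. The histone chaperone subunit Chaf1a was at -0.33 and -0.26. The brightest replication genes gave opposite signs on the 2 arrays, with Pcna at 0.21 and -0.18 and Mcm6 at -0.46 and 0.31. Histone genes had a median of -0.04 with 6 of 20 below 0 on both arrays and 1 above. Growth arrest genes did not move the other way as a list, with 2 of 24 above 0 and 3 below, Cdkn1a standing at 0.13 and 0.11. Both cell division medians kept their sign in all 9 alternative processings that used both arrays.

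Myeloid lists went both ways. Of 32 measurable neutrophil and monocyte genes 15 were above 0 on both arrays, 46.9% against 19.9% of spleen genes, and 3 were below, with a median of 0.06 (0.07 and 0.08). S100a9, a subunit of calprotectin, was at 0.34 and 0.12 and its partner S100a8 at 0.10 and 0.19. The granule proteins Ltf, Ngp and Mmp8 stood at 0.05 and 0.40, 0.06 and 0.48, and 0.22 and 0.18. None of them passed 1.3-fold on both arrays. Splenic macrophage genes had a median of -0.04 (-0.04 and -0.06) over 32 members, 10 of them below 0 and 3 above. Nr1h3, the oxysterol receptor needed by marginal zone macrophages, was at -0.24 and -0.30, the iron exporter Slc40a1 at -0.14 and -0.20 and Hmox1, which breaks down haem, at -0.20 and -0.13, while Marco and Lyz2, among the brightest, had opposite signs on the 2 arrays. Dendritic cell genes had a median of 0.01. Ccl17, a chemokine of mature dendritic cells, stood at 8.62 and 8.64 against 8.21 and 8.27, with ratios of 0.41 and 0.37, and Itgax was at -0.18 and -0.29. Mast cell and basophil genes had a median of 0.01, with 3 of 12 above 0 and 2 below.

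Erythroid, platelet and stromal genes lay slightly below 0. Of 48 erythroid genes 15 were below 0 on both arrays and 4 above, with a median of -0.05 (-0.03 and -0.07). These were 31.2% and 8.33%, against 19.7% and 19.9% of spleen genes. The water channel Aqp1 was at -0.33 and -0.23 and the erythroid regulator Gfi1b at -0.18 and -0.35, while the globin gene Hba-a1, the brightest, was at 0.36 and -0.53. Platelet genes had 10 of 24 below 0 and 2 above, with a median of -0.07. Among 42 genes of reticular fibroblasts and matrix 24 were below 0 on both arrays, 57.1%, and 2 above, with a median of -0.06 (-0.02 and -0.10). The collagen genes Col1a1 and Col1a2 stood at -0.39 and -0.28 and at -0.32 and -0.05, and Ccl19, the chemokine of the T cell zone stroma, at 0.14 and -0.31. Endothelial genes had a median of -0.06 (-0.14 and -0.01), with 11 of 28 below 0 on both arrays and 4 above. Fabp4, in contrast, was at 0.28 and 0.28, and it was brighter on the liver arrays. Smooth muscle genes had a median of -0.05, with 6 of 19 below 0 on both arrays and 3 above. Cnn1 stood at 0.22 and 0.14 and Acta2 at -0.15 and 0.04. Mesothelium genes had a median of -0.03, with 2 of 8 below 0 on both arrays and 3 above. In bulk tissue, fewer cells of a type and less RNA per cell cannot be told apart.

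**Figure D4:**
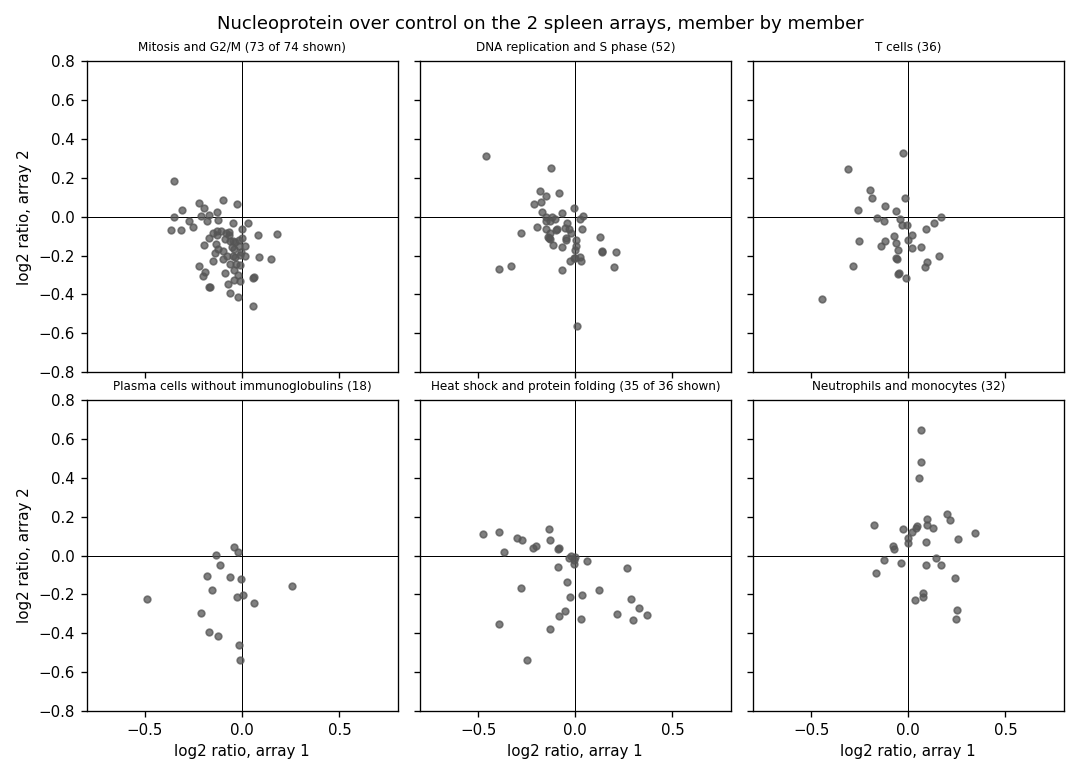
Log2 ratio on array 1 (x axis) against array 2 (y axis) for the members of 6 gene lists; members past 0.8 log2 units on either array are left out and the number shown is given in the title. Mitosis genes crowd into the lower left quadrant (53 of 74), neutrophil genes into the upper right (15 of 32).

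Genes of the response to lipopolysaccharide differed little between the diets. Of 34 cytokines and their receptors 10 were above 0 on both arrays and 6 below, and 0 passed 1.3-fold. Il12b and Il10 stood at 0.28 and 0.04 and at 0.26 and 0.03, and Tnf at -0.23 and -0.15. Of 47 interferon-stimulated genes 13 were above and 6 below, with Isg15, a ubiquitin-like modifier, at 0.21 and 0.31 and Iigp1 at 0.31 and 0.05. The medians of both lists and that of the chemokines lay between -0.00 and 0.02. Glucocorticoid-induced genes had the highest list median, 0.09 (0.10 and 0.10), with 9 of 20 above 0 on both arrays and 1 below. These were 45% and 5%, against 19.9% and 19.7% of spleen genes. Of the 24 measurable in either organ, 8 were brighter on spleen and 16 on liver arrays, so the list does not mark spleen cells alone. The kinase Pdk4 was at 0.22 and 0.29 and the transcription factor Cebpd at 0.11 and 0.15. In MHC class II presentation 8 of 16 genes (50%) were below 0 on both arrays and 2 (12.5%) above, with a median of -0.10 (-0.09 and -0.04). Its brightest members, the invariant chain Cd74 and the protease Ctss, stood at -0.06 and -0.28 and at 0.45 and -0.44, while the costimulatory Cd80 and Cd86 were at 0.18 and 0.21 and at 0.10 and 0.10.

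Nucleotide metabolism, which the diet bears on directly, showed no gene past 1.3-fold among those not set apart. De novo purine synthesis had a median of -0.00 (-0.07 and 0.04) over 17 genes, 3 below 0 on both arrays and 1 above. Impdh2, which commits purines to guanine nucleotides, was at -0.12 and -0.05. Salvage and breakdown genes had a median of 0.01, with Hprt, the purine salvage enzyme, at 0.24 and -0.10 and Ada, which deaminates adenosine, at -0.14 and -0.02. Pyrimidine genes had a median of 0.04 (0.02 and 0.03). Ctps, which makes CTP from UTP, was at 0.15 and 0.16 and Dhodh at 0.17 and 0.08. The nucleoside transporters Slc28a2 and Slc29a1 were at -0.10 and -0.23 and at -0.16 and -0.08, and Slc29a2 at 0.22 and 0.10. Differences below 1.3-fold in single genes remain without a replicate check, and those with opposite signs between the arrays cannot be read as a diet difference.

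**Figure D5:**
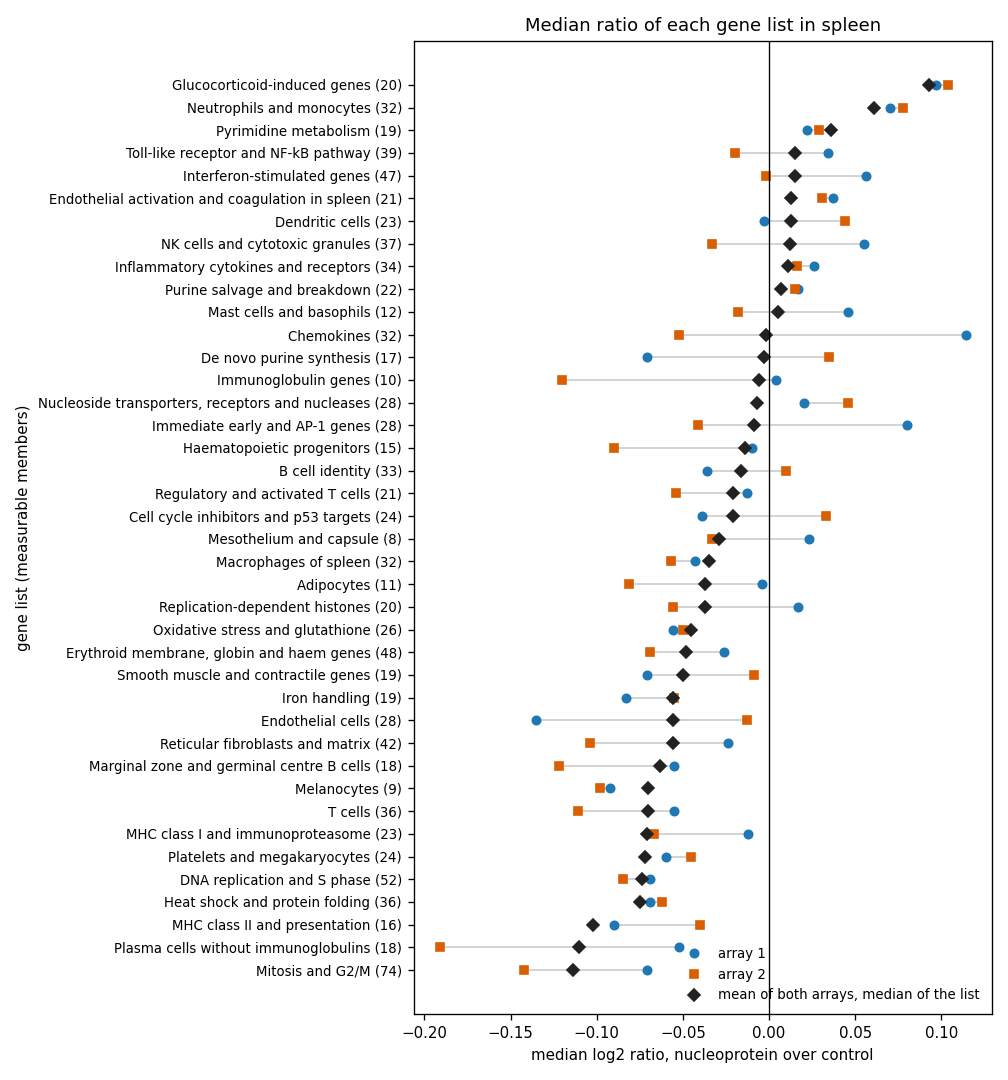
Median log2 ratio of each gene list of at least 8 measurable members on array 1 (circles), array 2 (squares) and for the mean of both (diamonds), without the genes set apart. Mitosis genes (-0.11) and plasma cell genes (-0.11) are the lowest and glucocorticoid-induced genes (0.09) the highest; ribosomal protein genes, with 0.30 and -0.36 on the 2 arrays, are not drawn.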

How the data were processed

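Spleen RNA pools of 2 diets were measured on 2 two-colour Agilent arrays of opposite dye orientation. The authors deposited scanner files of Feature Extraction, Agilent's scanner software (version 9.5.3.1 in the submitters' processing notes, 9.5.1.1 per the file headers), with mean and background intensity per spot, processed intensity and the log10 of red over green. The authors' deposited value table, named a score here, equals in size the linear red over green processed signal within 0.02 log2 units for 99.9% and 99.85% of spots on arrays 1 and 2; its column medians were -0.96 and 0.96, it was not centred, and the purpose of the minus sign on array 1 is unknown. Each array had 43379 gene spots for 41174 probes. Outlier spots (189 and 354) were left out. Background was corrected by normexp with an offset of 50 and ratios were normalized by loess within arrays (limma 3.58.1, R 4.3.3), with control spots at weight 0. Levels of single channels came after Aquantile scaling. Ratios were turned to nucleoprotein over control and averaged over the dye swap. Probes were named through a RefSeq table of GRCm38.p6 (22951 by accession, 9768 by symbol or synonym, 8455 kept the file's name), and positions are those of the files on mm7. Where a gene had several probes, the one brightest on average across the 4 arrays stood for it. All arrays were on 1 slide, and their number limits the precision.

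The 44 gene lists (1426 entries, 1346 on the arrays) and their members were chosen with earlier results of these data known. Genes were named from those past 1.5-fold with an official symbol and, in each cell type list, from the 3 brightest, those past 1.3-fold and the 2 with the largest shift on both arrays; in other lists from the 2 brightest and those past 1.3-fold. Others are marked as chosen after their values were seen or illustrate a list's count. The calls were tested on simulated data. Values of 2 genes are not reported here.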

Additional observations from a re-analysis of the deposited data

How the results depend on the processing

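The counts of genes past the bounds depended on the processing. Of the named genes recomputed (Clec2d, Snrpd3, Kifc5b, Btk, Hspa1a, Cyp20a1, Igh-1a, Igkv3-12 and others) none changed sign, with the widest ranges for Dct (-2.71 to -1.15) and Ipo7 (0.24 to 1.32), but the medians of chemokines, de novo purine synthesis, immediate early genes, mast cells, mesothelium and pancreatic islets changed sign in at least 1 alternative, and that of the immunoglobulin gene list in 3 of 9 (-0.08 to 0.03). For all measurable genes the counts past 1.5-fold were 39 higher and 41 lower. They were 66 higher with a normexp offset of 10, 77 higher with plain background subtraction, 102 higher and 81 lower with the deposited log ratios, 21 and 18 at 2-fold, and 10 lower with median centring, which left 30 higher. Single arrays gave 52 to 59 higher and 58 to 88 lower. Without the genes set apart (5 higher and 18 lower), they were 8 higher at offset 10, 9 and 29 with subtraction, 15 and 49 with the deposited log ratios, 2 and 5 with median centring and 1 and 2 at 2-fold. Single arrays gave 15 to 20 higher and 35 to 60 lower.

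The neutrophil median was 0.074 at offset 10, 0.078 with subtraction and 0.079 with the deposited log ratios, and that of replication genes -0.088 with the latter. Single arrays gave -0.035 to 0.017 for B cells, -0.055 to -0.037 for macrophages and 0.064 to 0.078 for neutrophils. Of the immunoglobulin probes, an alternative added after seeing the data, 32 were past 1.3-fold lower; median centring gave 2, subtraction 1 higher, the deposited log ratios 2 higher, and single arrays 41 to 55 lower, 0 to 8 higher and medians of -0.31 to -0.24. Other filters on dim probes, no background correction, the median over a gene's probes and liver-rich thresholds of 4-fold and 16-fold moved none of these counts by more than 1.5 times. A value for slide could not be had, since all arrays shared 1 slide. No paired analysis was possible because the 2 arrays were taken as a dye swap of the same pools and no test was run.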
